A study of Mus musculus with 12 samples.

Results

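The effect of a diet without branched-chain amino acids (BCAA), that is, without leucine, isoleucine and valine, was examined in mouse hearts that had not been put under pressure overload. The comparison rested on 6 of the 12 samples of the series: 3 hearts labelled BCAA-free diet with sham surgery and 3 labelled BCAA-control diet with sham surgery, over all 15438 genes listed in the deposited table of that contrast. All samples came from male C57Bl/6J mice aged 12 weeks. The control diet held all essential amino acids, with BCAA at the level of ordinary chow, and the BCAA-free diet held none. Feeding began 4 days before the operation and went on for the 2 weeks until the hearts were taken. The other 6 samples had the same diets but underwent transverse aortic constriction (TAC), a surgical narrowing of the aorta that makes the left ventricle pump against a raised pressure. They are separate libraries and serve here as a second measure of the diet. The labels give neither the chamber sampled, nor whether a sample was 1 heart or a pool, nor the time of day of collection, nor how much the mice ate. What the p-values measure is therefore the spread between libraries, part of which may be technical.

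BCAA are essential amino acids that most tissues can burn. Transaminases first turn them into branched-chain keto acids, and the mitochondrial branched-chain keto acid dehydrogenase complex then commits these to oxidation. Leucine also signals amino acid supply to mTORC1, the kinase complex that drives protein synthesis, while a shortage of any essential amino acid can activate the kinase GCN2 and the transcription factor ATF4. The heart oxidises BCAA, although fatty acids are its main fuel.

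PolyA RNA was measured, and the values below are normalized read counts, that is, a gene's reads divided by a size factor of its library. Depth, as reads recovered from those values, was 23303846 to 34804687 in the control diet libraries and 13847107 to 50144754 in the BCAA-free libraries, with BCAA-free replicate 2 the shallowest. These depths take the smallest gap between low values of a library as 1 read, which is less certain for BCAA-free replicates 1 and 3, where no gene is listed at 1 read. Control diet replicate 3 correlated least with its own group (median r of log2 values 0.983, against 0.986 to 0.990 in the other 5 libraries; these are correlations across genes). Cardiomyocyte markers summed to 3884620 to 4004510 in control diet libraries and to 3729510 to 4038900 in BCAA-free libraries. The atrial gene Bmp10 had 993 in control diet replicate 1 and at most 39.5 in the other 5 libraries. Of 9 atrial markers tested, 4 were positive and 5 negative, with a median log2 fold change of -0.09. Their sums were 13507 to 26613 in control diet libraries and 13965 to 23859 in BCAA-free libraries. The atrial content of the samples may thus not have been even, which was not tested. In whole tissue, fewer cells of a type and less RNA per cell cannot be told apart.

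The diet moved few genes past the threshold. By limma on log2(value + 1), with Benjamini-Hochberg adjustment over 15217 tested genes, 95 genes had an adjusted p under 0.05 and are called changed (0.624% of those tested). Of these, 38 rose (0.25%) and 57 fell (0.375%), among them 19 and 25 with a log2 change of 1 or more. Counts of called members in the lists below are to be read against 0.25% for rises and 0.375% for falls. In all 95 the libraries of the 2 diets did not overlap, which was so for 23% of the tested genes in general (11.7% with the BCAA-free libraries higher, 11.3% with them lower). A call with 3 libraries per diet makes such separation likely, so for called genes it describes the values and adds no support of its own. The median log2 fold change of all tested genes was -0.00045, and 2525 of them (16.6%) had an unadjusted p under 0.05, the share against which such counts for gene lists are to be read. The gene lists below were written with earlier results of these data known. Their counts and medians therefore describe the members and support nothing by themselves. The authors' deposited table called 255 genes up and 277 down, and held all 95 in the same direction. The count leaned on single libraries: it was 14 without BCAA-free replicate 1, 6 without BCAA-free replicate 2, 32 without control diet replicate 1, 211 without control diet replicate 2 and 475 without control diet replicate 3. It was also 4 by limma without its trend and robust options and 531 by DESeq2, and scaling to library totals alone gave 52 up and 45 down. Only 6 genes were called in each of the 6 fits that left out 1 library: Cyp1a1, Tfrc, Pim1, Gadd45g, Col3a1 and Crybg3 (the last of uncertain identity, described further on). In the alternative settings that kept all libraries, only Cyp1a1 of these was called throughout (11 of 11). Tfrc, Pim1 and Gadd45g were called in 11 of 12 each, Col3a1 in 10 of 12 and Crybg3 in 10 of 11.

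**Figure D1:**
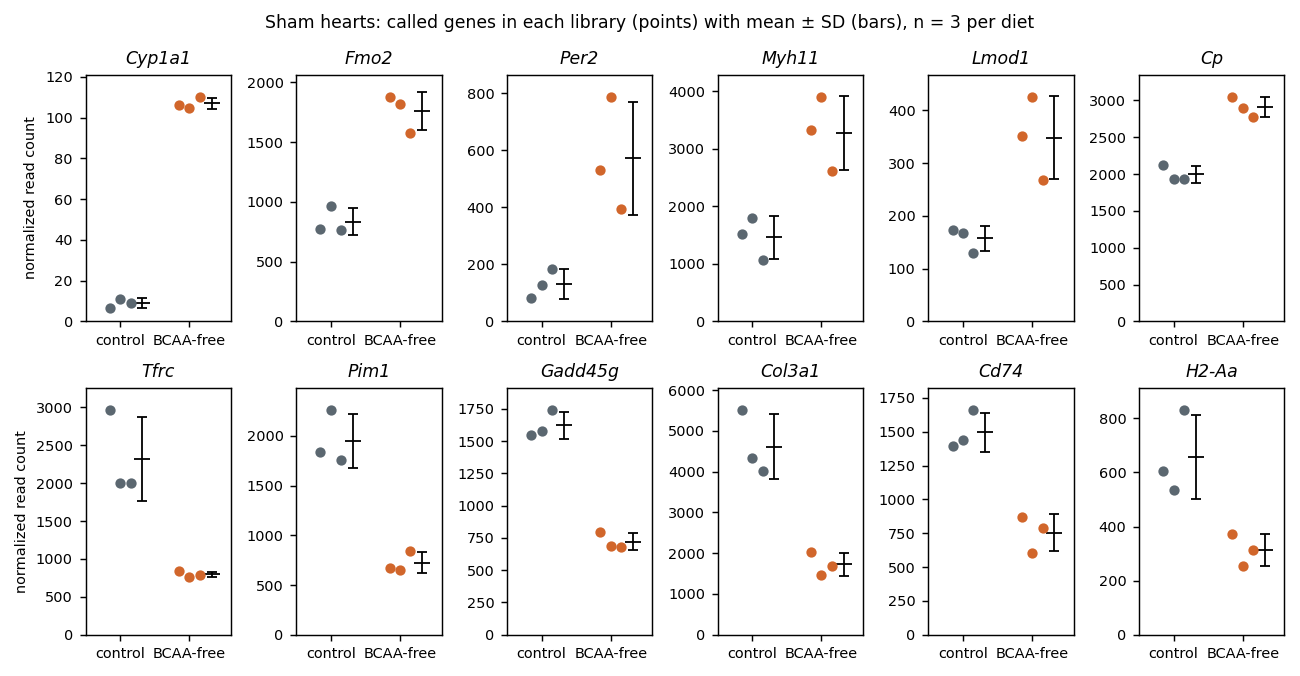
Normalized read counts of 12 called genes in the sham hearts, by diet, with a point for each library and the mean ± SD (n = 3) beside the points; each vertical axis starts at 0. Cyp1a1 lies at 6.73 to 11.2 on the control diet and at 105 to 110 on the BCAA-free diet, and the points of the 2 diets do not overlap in any panel.

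The same diet in the TAC hearts gave a measure of these genes from libraries that played no part in calling them. Of the 95 genes, 85 had a log2 fold change of the same sign there (36 of the 38 that rose and 49 of the 57 that fell). In the TAC diet table, 69 of the 95 were called in the same direction, and 0 were called in the opposite direction by limma. That table had many more calls in all, 34.2% of its 15872 tested genes, so 69 is to be read against that background. Of the genes tested in both diet comparisons, called or not, 56.8% had the same sign.

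**Figure D2:**
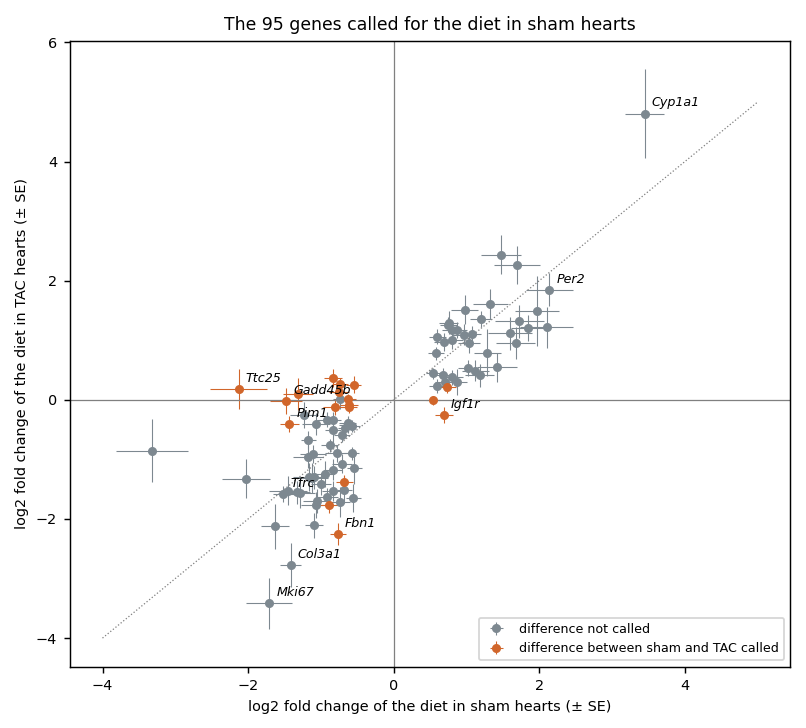
Log2 fold change of the BCAA-free against the control diet for the 95 called genes in sham hearts (horizontal axis) and in TAC hearts (vertical axis), each ± SE, with a dotted line where both are equal. Grey points are genes whose sham and TAC effects were not called different and orange points are the 18 that were; 85 points have the same sign on both axes.

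Enzymes that break down BCAA did not pass the test in either direction. None of the 27 tested members of the BCAA catabolism list was called, 13 were positive and 14 negative, and the median log2 fold change was -0.006. Bcat2, the mitochondrial BCAA transaminase, had 2644, 2785 and 3208 on the control diet and 2965, 2988 and 3192 on the BCAA-free diet. The ranges overlapped (log2 fold change 0.09 ± 0.11, adjusted p = 0.72). The keto acid dehydrogenase subunits Bckdha (0.07 ± 0.11, adjusted p = 0.81) and Bckdhb (0.13 ± 0.11, adjusted p = 0.60) and the kinase that inactivates the complex, Bckdk (-0.04 ± 0.10, adjusted p = 0.87), lay near 0 as well. In TAC hearts the diet gave 0.64, 0.75, 0.72 and 0.46 for these 4 genes, on the same scale and in the same order.

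Ppm1k, the phosphatase that activates the keto acid dehydrogenase, was the member with the smallest p. It had 1470, 1870 and 1024 on the control diet and 2300, 2516 and 2420 without BCAA. All 3 BCAA-free libraries were higher, yet the control libraries were spread widely and the gene was not called (0.77 ± 0.18, adjusted p = 0.080; 0.79 ± 0.18 in TAC hearts). Acadsb, an acyl-CoA dehydrogenase of isoleucine breakdown, had 3830, 3675 and 4062 against 4375, 4726 and 4809 (0.27 ± 0.10, adjusted p = 0.22). Klf15, a transcription factor known to favour BCAA breakdown in heart and muscle, had 2037, 2517 and 2749 against 3244, 3289 and 2896 (0.38 ± 0.12, adjusted p = 0.17). For both genes the diets did not overlap, as for 23% of all genes.

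Amino acid transporters carry amino acids across the cell membrane. Of 19 tested, 0 were called by limma, 9 had an unadjusted p under 0.05, 15 were positive and 4 negative. In all 3 BCAA-free libraries 8 of the transporters were higher and 1 lower, against 11.7% and 11.3% of all genes. Their median was 0.28, and -0.035 for the same diet in TAC hearts. Slc7a1, a carrier of cationic amino acids, had 1336, 1650 and 1275 on the control diet and 1851, 2020 and 2309 on the BCAA-free diet (0.54 ± 0.13, adjusted p = 0.068). Slc43a1, a carrier of large neutral amino acids that include the BCAA, had 46.3, 61.2 and 51.4 against 84.4, 137 and 91 (0.94 ± 0.23, adjusted p = 0.085). Slc7a5, the light chain of the main BCAA exchanger, overlapped between the diets with 140, 132 and 153 against 184, 177 and 134 (0.21 ± 0.17, adjusted p = 0.58).

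None of 22 genes of leucine sensing and mTORC1 was called (2 at an unadjusted p under 0.05, median -0.018). Deptor, an inhibitor bound to mTOR, had 426, 502 and 382 against 641, 622 and 518 (0.45 ± 0.14, adjusted p = 0.15). Lamtor1, which anchors mTORC1 activation at the lysosome, had 1788, 1683 and 2299 against 1569, 1503 and 1609 (-0.29 ± 0.12, adjusted p = 0.27). The stress-induced mTORC1 inhibitors Ddit4 (-0.03 ± 0.41, adjusted p = 0.98) and Sesn2 (-0.01 ± 0.23, adjusted p = 0.99) varied as much within a diet as between diets.

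Of 24 ATF4 targets 1 fell, and the median was -0.11. That gene was Aldh1l2, an enzyme of mitochondrial folate metabolism, with 517, 397 and 312 on the control diet and 193, 141 and 180 without BCAA. The groups were well apart (-1.23 ± 0.19, adjusted p = 0.021), but the call was lost without control diet replicate 1 or BCAA-free replicate 1 or 2. In TAC hearts the diet gave -0.25 ± 0.22, and the difference between sham and TAC was not called by limma (adjusted p = 0.064). Asns, asparagine synthetase, a standard target of ATF4 in amino acid shortage, was low and not called, at 81.6, 44.9 and 61.9 against 37.9, 38.5 and 48.1 (-0.55 ± 0.26, adjusted p = 0.32).

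The largest rise of a gene with an assigned function was that of Cyp1a1, a cytochrome P450 that oxidises aromatic compounds and is a standard target of the aryl hydrocarbon receptor (chromosome 9, 57687928 to 57703824, plus strand, GRCm38). It had 6.73, 11.2 and 9.22 on the control diet and 106, 105 and 110 on the BCAA-free diet. Every BCAA-free library lay about an order of magnitude above every control library, and the 3 of each diet lay close together (3.45 ± 0.27, adjusted p = 6.6e-04). In TAC hearts it had 2.69, 0 and 10.6 on the control diet and 232, 87.9 and 44.4 without BCAA. The groups were again apart, with a wider spread within the BCAA-free group (4.81 ± 0.75).

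Cyp1a1 stood in a list of 16 tested genes of sulfur amino acid and xenobiotic metabolism. Of these, 3 rose and 0 fell, against 0.25% and 0.375% of all genes. In that list 12 genes were higher in all 3 BCAA-free libraries, against 11.7% of all genes, and the median was 0.51. Fmo2, a flavin-containing monooxygenase, had 770, 966 and 768 on the control diet and 1878, 1819 and 1579 on the BCAA-free diet (1.08 ± 0.12, adjusted p = 0.0041; 1.10 ± 0.15 in TAC hearts). Cdo1, which starts the breakdown of cysteine to taurine and sulfate, had 77.4, 58.7 and 83 against 179, 182 and 173 (1.29 ± 0.18, adjusted p = 0.013; 0.79 ± 0.39 in TAC hearts). Outside the list, Xdh, the xanthine dehydrogenase of purine breakdown, had 1716, 2746 and 1904 against 4346, 4157 and 4260 (1.03 ± 0.15, adjusted p = 0.017; 0.96 ± 0.17 in TAC hearts). Gstm1, a glutathione transferase, was the 1 called gene among 15 antioxidant targets of NRF2, with 4029, 4122 and 4860 against 6397, 5993 and 7338 (0.60 ± 0.12, adjusted p = 0.049). Sult1a1, a sulfotransferase of phenols, rose too, from 636, 758 and 689 to 1236, 1218 and 918 (0.68 ± 0.13, adjusted p = 0.049). Of the 6 fits that left out 1 library, Cyp1a1 was called in 6, Fmo2 in 5 (not without BCAA-free replicate 2), Cdo1 in 4 (not without BCAA-free replicate 1 or 2), Sult1a1 in 3 and Xdh in 2. Gstm1 was called in 1 of them, that without control diet replicate 3.

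Clock genes varied between libraries of the same diet. The molecular clock of each cell runs on a loop in which CLOCK and ARNTL switch on the Period and Cryptochrome genes, whose proteins then silence CLOCK and ARNTL. The PAR bZIP factors DBP, HLF and TEF pass the rhythm on to other genes through D-box sequences, where NFIL3 opposes them. Per2, the Period gene that also responds to hormones and feeding, rose: it had 80.7, 127 and 184 on the control diet and 532, 787 and 396 on the BCAA-free diet. All 3 BCAA-free libraries were above all controls (2.14 ± 0.32, adjusted p = 0.033), and the diet gave 1.85 ± 0.28 in TAC hearts. Its call was lost without control diet replicate 2, BCAA-free replicate 1 or BCAA-free replicate 2.

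In Dbp, Hlf, Per3 and Tef, BCAA-free replicates 1 and 2 were above every control and replicate 3 lay among the controls. Dbp had 479, 665 and 304 on the control diet and 2193, 2892 and 466 on the BCAA-free diet (1.64 ± 0.82, adjusted p = 0.42). Hlf had 359, 387 and 231 against 890, 1054 and 377, Per3 had 264, 347 and 194 against 746, 1105 and 315, and Tef had 2620, 3076 and 2085 against 4796, 5812 and 2439. Ciart, a repressor of the CLOCK and ARNTL pair, had 119, 266 and 285 against 632, 799 and 115, with replicate 3 just below the lowest control. Arntl ran the other way with 918, 899 and 1001 against 447, 261 and 742, lower in every BCAA-free library but least so in replicate 3 (-1.08 ± 0.34, adjusted p = 0.20). Per1 had 3075, 5360 and 6719 against 6274, 5976 and 1927, with replicate 3 the lowest of all 6.

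Without BCAA-free replicate 3, Per3 (1.80), Dbp (2.45), Hlf (1.61), Tef (1.04) and Arntl (-1.46) were all called, at adjusted p = 0.026, 0.023, 0.025, 0.039 and 0.026. Each was called in only this 1 of the 6 fits that left out 1 library. That library stands out by its values in these same genes, so the calls made without it are no separate support. With BCAA-free replicate 3 kept, 1 of 18 core clock genes and 0 of 4 PAR bZIP factors were called by limma (7 and 1 at an unadjusted p under 0.05). Nr1d2, a repressor of Arntl, was higher in all 3 BCAA-free libraries, at 3126, 3725 and 2396 against 1959, 2227 and 1581, and did not pass (0.67 ± 0.17, adjusted p = 0.097). In TAC hearts, the diet gave 2.70 ± 0.59 for Dbp, 2.01 ± 0.33 for Hlf, 1.73 ± 0.39 for Per3 and -2.38 ± 0.28 for Arntl. The part that the hour of collection has in these values was not tested, since the labels give no hour.

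**Figure D3:**
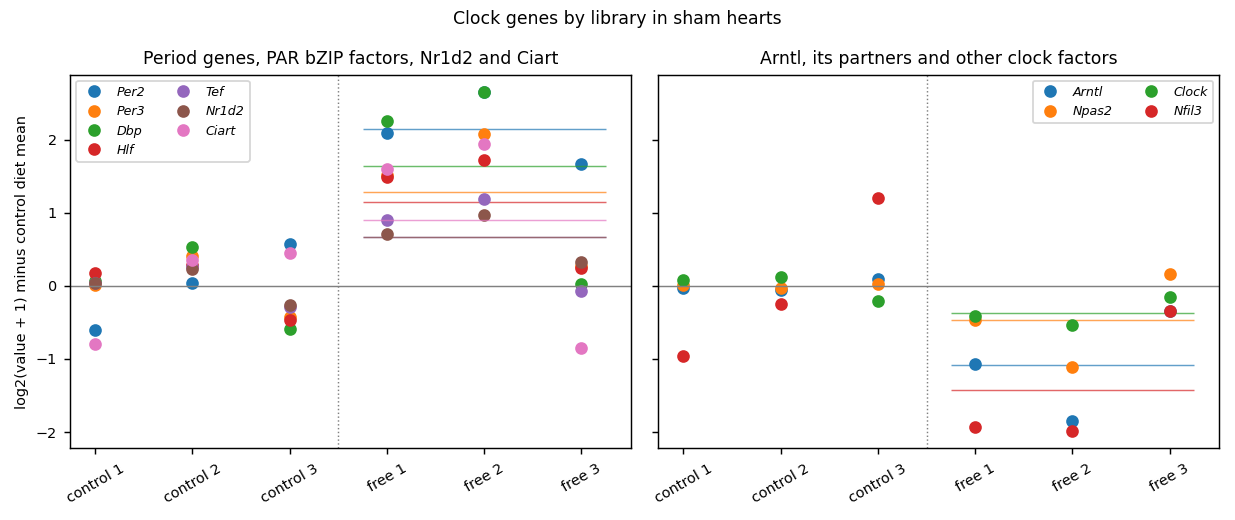
Clock genes in each sham library, as log2(value + 1) minus the mean of the 3 control diet libraries; points are libraries and coloured lines the mean of the 3 BCAA-free libraries. Dbp, Hlf, Per3 and Tef are high in BCAA-free replicates 1 and 2 and near 0 in replicate 3, whereas Per2 is high in all 3 and Arntl is lower in all 3.

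Per3 is shown because its promoter was the only one among 20 promoters of 13 core clock genes that held a D-box, searched as TTATGTAA or TTACGTAA on both strands in the 250 bases before the gene start. Of 13961 promoters of 10941 tested genes, 0.63% held one. The sequence is from RefSeq, GRCm38.p6, chr4:151044666-151044915, minus strand, with the D-box letters in capitals.
Per3: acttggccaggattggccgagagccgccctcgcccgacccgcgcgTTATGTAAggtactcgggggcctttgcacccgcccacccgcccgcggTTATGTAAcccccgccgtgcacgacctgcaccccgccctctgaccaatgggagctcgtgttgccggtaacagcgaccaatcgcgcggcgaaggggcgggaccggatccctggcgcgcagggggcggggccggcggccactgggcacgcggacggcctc
The match describes the letters only.

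Iron uptake gave a fall that no single library decided. Tfrc, the transferrin receptor that brings iron into cells (chromosome 16, 32608920 to 32632794, plus strand), had 2960, 2002 and 1997 on the control diet and 836, 761 and 793 on the BCAA-free diet. The 3 BCAA-free libraries were close together and far below the lowest control (-1.52 ± 0.15, adjusted p = 0.0017). In TAC hearts the fall was of about the same size, from 2917, 2933 and 3345 to 992, 994 and 1079 (-1.58 ± 0.13). Cp, ceruloplasmin, a copper enzyme that oxidises iron as it leaves cells, rose from 2126, 1932 and 1930 to 3047, 2903 and 2777 (0.54 ± 0.10, adjusted p = 0.038). Its call was lost without control diet replicate 1 or any 1 BCAA-free library, and the diet gave -0.01 ± 0.08 in TAC hearts. The other 17 of the 19 tested iron genes were not called, and the list's median was -0.034.

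Pim1, Gadd45g and Gadd45b, which are induced by stress or cytokines, fell without BCAA. Pim1, a kinase gene induced by STAT signalling (chromosome 17, 29490753 to 29496112, plus strand), had 1840, 2258 and 1756 on the control diet and 667, 656 and 845 on the BCAA-free diet. No library of one diet came near the other (-1.43 ± 0.13, adjusted p = 0.0014). Gadd45g, a stress sensor that binds cell cycle and MAP kinase proteins (chromosome 13, 51846678 to 51848468, plus strand), had 1548, 1578 and 1739 against 796, 684 and 681 (-1.17 ± 0.11, adjusted p = 0.0014). Its relative Gadd45b had 1021, 1389 and 1503 against 534, 573 and 319 (-1.48 ± 0.22, adjusted p = 0.029), and lost its call without control diet replicate 2 or 3 or BCAA-free replicate 1 or 2. These were the 2 genes called of 14 in the list of GADD45 and p53 targets (median -0.25), and Pim1 was the 1 called of 16 STAT3 and gp130 targets (median -0.12).

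The immediate early and heat shock lists gave no calls by limma. Of 25 immediate early genes, 20 were negative, 3 had an unadjusted p under 0.05, and the median was -0.31. That median ran from -0.83 to 0.064 over the alternatives and leave-outs. Ier2 had 450, 905 and 889 on the control diet and 348, 383 and 505 without BCAA (-0.81 ± 0.27, adjusted p = 0.19), and Fosl1 had 57.2, 59.9 and 31.6 against 73.4, 91.9 and 87.5 (0.80 ± 0.26, adjusted p = 0.17). Ier2 overlapped between the diets and Fosl1 did not. None of 19 heat shock genes was called (2 at an unadjusted p under 0.05), the 2 with the smallest p being Hspa4l (-0.35 ± 0.11, adjusted p = 0.16) and Hspb8 (-0.28 ± 0.12, adjusted p = 0.27).

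Chaperones of the endoplasmic reticulum fold secreted proteins. Of 20 genes of the unfolded protein response, 19 were positive, with 0 called by limma and 6 at an unadjusted p under 0.05. In all 3 BCAA-free libraries 7 were higher, against 11.7% of all genes. Their median was 0.20. Dnajb9 had 1156, 1228 and 1258 against 1557, 1642 and 1704 (0.43 ± 0.10, adjusted p = 0.062), and Calr, calreticulin, had 6499, 6659 and 6287 against 8414, 7904 and 9583 (0.41 ± 0.11, adjusted p = 0.099). For both genes the diets did not overlap.

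Matrix genes comprised 22 collagen chains and 49 glycoproteins and proteases. Of these, 8 fell and 0 rose, against 0.375% and 0.25% of all genes, in hearts that had not been put under pressure overload. Of the collagen chains 3 fell and 0 rose. In all 3 BCAA-free libraries 12 were lower and 1 higher, against 11.3% and 11.7% of all genes. The median of the 22 chains was -0.38. Their summed values were 47982 to 58942 on the control diet and 33952 to 36303 without BCAA. Col3a1, a chain of the fibrils of loose connective tissue and vessel walls (chromosome 1, 45311538 to 45349706, plus strand), had 5505, 4330 and 4014 on the control diet and 2023, 1466 and 1693 on the BCAA-free diet. The highest BCAA-free library was far below the lowest control (-1.42 ± 0.15, adjusted p = 0.0026). Col15a1, a collagen of basement membranes, had 3968, 3111 and 3164 against 1745, 1453 and 1569 (-1.10 ± 0.12, adjusted p = 0.0040), and Col6a2, a chain of microfibrils around cells, had 3005, 2691 and 2871 against 1936, 1642 and 1779 (-0.68 ± 0.10, adjusted p = 0.017). Col3a1 kept its call without any 1 library, Col15a1 lost it without BCAA-free replicate 2, and Col6a2 lost it without control diet replicate 1 or BCAA-free replicate 1 or 2.

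Of 49 matrix glycoproteins and proteases 5 fell and 0 rose, against 0.375% and 0.25% of all genes. In all 3 BCAA-free libraries 15 were lower and 7 higher, against 11.3% and 11.7% of all genes. The median was -0.20. Papln, a proteoglycan-like matrix protein, had 741, 518 and 569 against 278, 265 and 188 (-1.32 ± 0.18, adjusted p = 0.011). Fbn1, fibrillin of elastic fibres, had 3069, 2779 and 2611 against 1880, 1629 and 1477 (-0.77 ± 0.12, adjusted p = 0.017). The collagen-degrading protease Mmp2 had 1518, 1348 and 1516 against 1072, 951 and 961 (-0.55 ± 0.10, adjusted p = 0.043). Sparc, a collagen-binding glycoprotein, had 8057, 6461 and 9460 against 5080, 4760 and 4388 (-0.74 ± 0.14, adjusted p = 0.043). In each of these genes every BCAA-free library was below every control. Papln lost its call without BCAA-free replicate 2, Fbn1 without control diet replicate 1 or BCAA-free replicate 1 or 2, and Mmp2 and Sparc also without BCAA-free replicate 3. In TAC hearts the diet gave -2.78 ± 0.37 for Col3a1, -2.11 ± 0.21 for Col15a1, -1.56 ± 0.20 for Papln, -2.25 ± 0.18 for Fbn1 and -1.72 ± 0.25 for Sparc, with list medians of -1.57 for collagens and -1.15 for the other matrix genes against -0.38 and -0.20 after sham.

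Of 16 fibroblast markers 1 fell, and none was absent. In all 3 BCAA-free libraries 7 were lower and 1 higher, against 11.3% and 11.7% of all genes. The median was -0.28, and the sums were 68235 to 78474 on the control diet and 63356 to 66307 without BCAA. The called gene was Pi16, a marker of fibroblasts around vessels, with 1852, 1572 and 2213 against 960, 913 and 1025 (-0.95 ± 0.13, adjusted p = 0.010). The list holds 2 collagen genes as well, and its part in the matrix values was not tested. Sgcd, a sarcoglycan that links muscle cells to the matrix, fell from 737, 575 and 547 to 299, 314 and 255 (-1.09 ± 0.14, adjusted p = 0.010). Apln, the peptide apelin that acts on vessels and heart contraction, fell from 611, 392 and 519 to 229, 274 and 198 (-1.10 ± 0.18, adjusted p = 0.024).

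Class II molecules present peptides on macrophages, dendritic cells and B cells. Of 13 tested genes of this pathway 3 fell and 0 rose, against 0.375% and 0.25% of all genes, and the median was -0.64. In all 3 BCAA-free libraries 6 were lower, against 11.3% of all genes. Their summed values were 4910 to 6951 on the control diet and 3022 to 3594 on the BCAA-free diet. H2-Ab1, a class II beta chain, had 780, 758 and 1393 against 416, 336 and 401 (-1.29 ± 0.21, adjusted p = 0.036). Its partner, the alpha chain H2-Aa (chromosome 17, 34282744 to 34287823, minus strand), had 606, 534 and 830 against 373, 254 and 312 (-1.06 ± 0.18, adjusted p = 0.033). Cd74, the invariant chain that guides class II molecules to the endosome, had 1391, 1439 and 1659 against 869, 601 and 791 (-1.0 ± 0.14, adjusted p = 0.012). No BCAA-free library reached a control in these genes, and control diet replicate 3 was the highest in each.

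Without that library, the log2 fold changes of H2-Ab1, H2-Aa and Cd74 were -1.0, -0.88 and -0.93, and all 3 kept their call. H2-Ab1 and H2-Aa lost it without control diet replicate 1 or any 1 BCAA-free library, and Cd74 without BCAA-free replicate 2. H2-Eb1, the beta chain of the other class II pair, had 693, 650 and 1199 against 416, 276 and 344, with no overlap, and just missed (-1.26 ± 0.23, adjusted p = 0.052). H2-DMb1, a chain of the peptide loader, had 61.4, 67.4 and 79 against 29.1, 17.1 and 34.2 (-1.39 ± 0.29, adjusted p = 0.054). Ciita, the switch of class II transcription, was low and overlapped between the diets with 46.3, 48.7 and 44.8 against 28.5, 19.2 and 46.3 (-0.64 ± 0.31, adjusted p = 0.33).

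The promoters of H2-Aa and H2-Eb1 are shown because, of 10 class II promoters searched, these were the ones that held the Y box CTGATTGG on either strand in the 250 bases before the start. The box is part of the set of elements through which class II genes are switched on together, and 4.98% of the 13961 promoters held it. The sequences are from RefSeq, GRCm38.p6, at chr17:34287824-34288073 on the minus strand and chr17:34305617-34305866 on the plus strand, 5′ to 3′ along each gene, with the Y box in capitals.
H2-Aa: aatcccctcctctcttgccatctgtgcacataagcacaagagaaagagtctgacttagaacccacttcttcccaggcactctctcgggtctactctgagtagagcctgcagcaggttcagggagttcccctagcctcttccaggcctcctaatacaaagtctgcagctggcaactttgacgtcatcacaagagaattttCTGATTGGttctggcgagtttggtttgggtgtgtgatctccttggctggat
H2-Eb1: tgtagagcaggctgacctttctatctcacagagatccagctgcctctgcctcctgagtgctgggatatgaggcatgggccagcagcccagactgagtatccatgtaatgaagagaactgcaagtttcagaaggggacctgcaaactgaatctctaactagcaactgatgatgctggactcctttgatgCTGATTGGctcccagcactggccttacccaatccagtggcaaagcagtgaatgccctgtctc
The Y box begins 51 bases before the start of H2-Aa and 62 bases before that of H2-Eb1.

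Of 25 macrophage markers 0 were called by limma and 12 had an unadjusted p under 0.05, with 21 negative and a median of -0.51. In all 3 BCAA-free libraries 12 were lower, against 11.3% of all genes. All 25 were detected, and their sums were 10869 to 15787 on the control diet and 9398 to 10047 without BCAA. Mrc1, the mannose receptor of resident macrophages, had 791, 680 and 723 against 505, 500 and 524 (-0.52 ± 0.11, adjusted p = 0.056), and Ms4a7 had 61.4, 36.2 and 54 against 21.5, 10.7 and 20.9 (-1.49 ± 0.34, adjusted p = 0.064). Fcrls, an Fc receptor-like gene of macrophages and microglia, fell from 171, 131 and 207 to 87.9, 70.5 and 79.4 (-1.07 ± 0.20, adjusted p = 0.045), a call lost without control diet replicate 1 or any 1 BCAA-free library. Dendritic cell markers were sparse, with 6 of 10 not among the genes of the table (Flt3, Xcr1, Cd209a, Ccr7, Batf3 and Siglech) and sums of 469 to 587 against 492 to 631. Of 21 lymphocyte markers 13 were not among them either. The part of cell numbers in the class II values was not tested.

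Of 19 contractile genes of smooth muscle 3 rose and 0 fell, against 0.25% and 0.375% of all genes. In all 3 BCAA-free libraries 12 were higher and 1 lower, against 11.7% and 11.3% of all genes, and the median was 0.40. The list's sums were 224086 to 240770 on the control diet and 258037 to 273029 on the BCAA-free diet, a total that also holds genes shared with heart muscle. Myh11, the myosin heavy chain of smooth muscle, had 1511, 1804 and 1063 against 3318, 3899 and 2619 (1.18 ± 0.20, adjusted p = 0.043). Lmod1, which nucleates actin filaments in smooth muscle, had 174, 169 and 130 against 351, 425 and 268 (1.12 ± 0.19, adjusted p = 0.030). Mylk, the myosin light chain kinase that starts contraction, had 984, 1206 and 880 against 1687, 1808 and 1586 (0.74 ± 0.12, adjusted p = 0.031). All 3 genes kept the diets apart, and all 3 lost their call without control diet replicate 1, BCAA-free replicate 1 or BCAA-free replicate 2, Mylk also without BCAA-free replicate 3.

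The contractile list had a median of -0.10 for the same diet in TAC hearts, where Myh11 had 0.41 ± 0.19, Lmod1 0.49 ± 0.17 and Mylk 0.22 ± 0.10. The difference between sham and TAC was called for Mylk (0.51, adjusted p = 0.046; called in 7 of 23 alternatives and leave-outs, and 0.30, adjusted p = 0.11, with GC and length trends removed) but not for Myh11 (adjusted p = 0.093) or Lmod1 (adjusted p = 0.11). Pericyte and endothelial markers had no calls by limma, with medians of 0.14 over 10 genes and 0.057 over 17, and 3 and 4 genes at an unadjusted p under 0.05. Rgs5, a pericyte regulator of G-protein signals, had 15412, 14077 and 11884 against 18608, 17710 and 16940 (0.37 ± 0.12, adjusted p = 0.16). Flt1, a VEGF receptor of endothelium, had 4045, 4514 and 3743 against 5511, 5826 and 5319 (0.44 ± 0.11, adjusted p = 0.078), while Cldn5, the tight junction claudin of endothelium, was lower at 559, 586 and 572 against 925, 1010 and 1971 (-1.10 ± 0.25, adjusted p = 0.086).

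**Figure D4:**
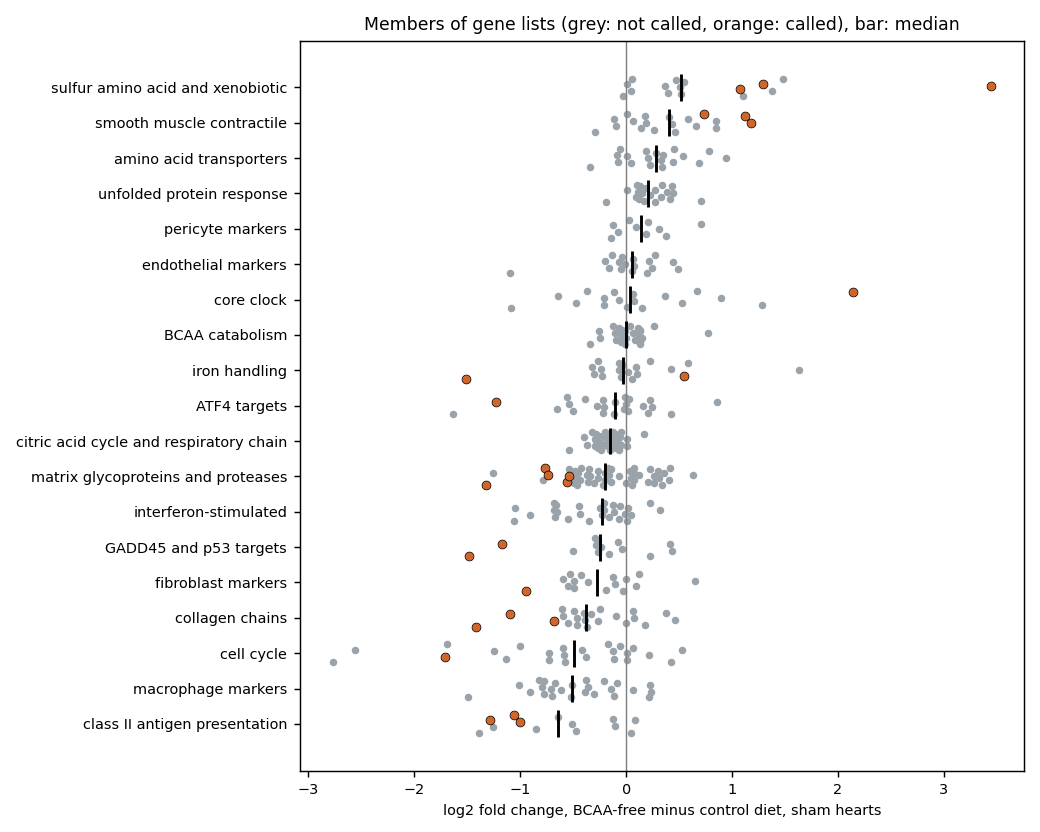
Log2 fold change of the BCAA-free against the control diet in sham hearts for the tested members of 19 gene lists; each point is a gene, orange if called, and the black bar is the list's median. The lists are a selection of those examined. Among the lists shown, the medians run from 0.51 for sulfur amino acid and xenobiotic genes to -0.64 for class II genes, and most members of every list are not called. Lists with higher medians that are not shown include adipocyte markers (0.91), PAR bZIP factors (0.91) and epicardial and mesothelial markers (0.54).

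Fuel metabolism changed in single genes. Lipe, hormone-sensitive lipase that splits stored fat, rose from 1604, 1882 and 1512 to 2715, 2381 and 2357 (0.58 ± 0.11, adjusted p = 0.049; 0.78 ± 0.11 in TAC hearts), the 1 called of 22 PPAR and lipid targets. None of 30 genes of fatty acid uptake and oxidation was called (6 at an unadjusted p under 0.05, median -0.098). The 2 members with the smallest p were higher in all BCAA-free libraries: Slc27a1, a fatty acid transporter, had 6058, 7967 and 6523 against 9961, 9740 and 11127 (0.59 ± 0.12, adjusted p = 0.054), and Lpl, the lipase that frees fatty acids from blood lipoproteins, had 112387, 115369 and 100848 against 154815, 152200 and 161650 (0.51 ± 0.11, adjusted p = 0.056).

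Gapdh, the glycolytic enzyme often used as a reference gene, fell from 94894, 85775 and 110435 to 62944, 62415 and 63707 (-0.61 ± 0.12, adjusted p = 0.049). The 3 BCAA-free values were nearly equal and well below the controls, and the diet gave -0.09 ± 0.11 in TAC hearts. It was the 1 called of 28 genes of glycolysis and glycogen (median -0.10), and its call was lost without control diet replicate 1 or any 1 BCAA-free library. Of 40 nuclear-encoded respiratory chain and citric acid cycle genes, 37 were negative (median -0.16, 0 called by limma, 4 at an unadjusted p under 0.05). In all 3 BCAA-free libraries 12 were lower, against 11.3% of all genes. Dlst, a subunit of 2-oxoglutarate dehydrogenase, had 21923, 21281 and 21556 against 17016, 18206 and 19045 (-0.26 ± 0.10, adjusted p = 0.23). For the same list the diet gave a median of 0.47 in TAC hearts.

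Of the glucocorticoid-responsive genes 2 rose, and outside that list so did Igf1r, Amd1 and Neat1. Tsc22d3, a classical glucocorticoid target that restrains inflammation, had 1720, 1701 and 1822 on the control diet and 2701, 2471 and 2481 on the BCAA-free diet (0.54 ± 0.09, adjusted p = 0.033; 0.44 ± 0.09 in TAC hearts). It and Sult1a1 were the 2 called of 18 glucocorticoid-responsive genes, whose median was 0.083. Igf1r, the receptor of insulin-like growth factor 1, rose from 717, 808 and 605 to 1106, 1242 and 1069 (0.69 ± 0.13, adjusted p = 0.042), with -0.25 ± 0.13 in TAC hearts. Amd1, which makes the aminopropyl donor for polyamines, rose from 1299, 1733 and 1287 to 2328, 2642 and 3545 (0.97 ± 0.17, adjusted p = 0.033; 1.10 ± 0.18 in TAC hearts). The nuclear long noncoding RNA Neat1, a scaffold of paraspeckles, rose from 28736, 33864 and 39414 to 50775, 67671 and 67327 (0.86 ± 0.15, adjusted p = 0.033; 1.17 ± 0.13 in TAC hearts). Each of these genes kept the diets apart, and each lost its call without some single libraries, BCAA-free replicates 1 and 2 among them.

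Of the proliferation genes, 1 passed the test. Mki67, a marker of dividing cells, fell from 124, 61.2 and 130 to 29.1, 23.5 and 38.2 (-1.71 ± 0.31, adjusted p = 0.042; -3.41 ± 0.43 in TAC hearts), the 1 called of 24 cell cycle genes. The list's median was -0.50, and -0.055 among members averaging 100 or more. No gene of the fetal and hypertrophy program was called among 14 (4 at an unadjusted p under 0.05, median -0.060), although Acta1, skeletal alpha-actin, was lower at 4113, 4206 and 3040 against 10294, 6534 and 14198 (-1.39 ± 0.27, adjusted p = 0.062). Rcan1, a calcineurin target, had 3151, 2945 and 3348 against 2003, 1755 and 2525 (-0.60 ± 0.13, adjusted p = 0.060). Both kept the diets apart. Ankrd23, a titin-binding stretch sensor, fell from 6901, 6380 and 9351 to 3875, 3638 and 4373 (-0.91 ± 0.14, adjusted p = 0.021); it lies outside the naming rule and was chosen after its values were seen.

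Of 27 interferon-stimulated genes 0 were called by limma and 11 had an unadjusted p under 0.05, with 22 negative and a median of -0.23. In all 3 BCAA-free libraries 8 were lower and 1 higher, against 11.3% and 11.7% of all genes. Ifit3 had 189, 175 and 260 against 129, 100 and 98.5 (-0.91 ± 0.19, adjusted p = 0.058) and Gbp4 had 339, 417 and 378 against 281, 201 and 240 (-0.66 ± 0.15, adjusted p = 0.070). Both encode proteins of antiviral defence. Among chemokines and cytokines, 11 of 27 were not among the genes of the table and 0 of 16 tested were called (6 at an unadjusted p under 0.05). The antigen presentation gene H2-Q6, of the class I type, fell from 515, 677 and 738 to 405, 229 and 271 (-1.12 ± 0.21, adjusted p = 0.049). It belongs to a family of near-identical copies, between which reads may be split, and is uncertain for that reason.

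Some calls are uncertain in what they measure. Crybg3 is listed under 2 Ensembl identifiers: ENSMUSG00000091562 fell from 589, 564 and 366 to 173, 175 and 134 (-1.63 ± 0.19, adjusted p = 0.0065), while ENSMUSG00000022723 had -0.0094 (adjusted p = 0.98). The first has no position in the GENCODE annotation used here. Gm42418, Mir6236 and Lars2 are loci known to overlap sequence like that of ribosomal RNA, and in polyA libraries their values can hold ribosomal reads. The first 2 were chosen after their values were seen. Gm42418 fell from 44889, 40573 and 38025 to 24193, 23830 and 21236 (-0.83 ± 0.11, adjusted p = 0.010), Mir6236 from 1852, 1578 and 1962 to 879, 1122 and 1016 (-0.84 ± 0.12, adjusted p = 0.017) and Lars2, the mitochondrial leucyl-tRNA synthetase, from 17237, 17931 and 17648 to 11097, 10471 and 10218 (-0.73 ± 0.10, adjusted p = 0.010). All 3 loci were thus lower in every BCAA-free library, and Lars2 was the 1 called of 23 aminoacyl-tRNA synthetases (list median -0.023). Transcripts of the called genes that fell had a median GC content of 54.9%, against 49.7% for those that rose and 49.8% for all tested genes.

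The diet effect was then set against that in TAC hearts by the interaction of diet and surgery over the 12 libraries, which asks whether the diet acted alike after both operations. By limma it was called for 1319 of 15291 genes (8.63%), with the sham effect the higher of the 2 for 569 (3.72%) and the lower for 750 (4.9%). Among the 95 genes that changed after sham it was called for 18, with 6 such differences positive and 12 negative. The count of 1319 was 298 and 235 without BCAA-free sham replicates 1 and 2, 656 and 666 without control diet TAC replicates 2 and 3, and 442, 709 and 239 without BCAA-free TAC replicates 1, 2 and 3. Scaling to library totals alone gave 1456 higher and 387 lower. For Pim1 the fall was larger after sham than after TAC, where the values went from 1133, 1466 and 1358 to 893, 1090 and 997 (difference -1.03 ± 0.19, adjusted p = 0.012). For Gadd45b, TAC hearts had 829, 879 and 1157 on the control diet and 939, 800 and 1088 without BCAA, ranges that overlap where the sham ranges did not (difference -1.47 ± 0.31, adjusted p = 0.021). Fbn1 went the other way, with a smaller fall after sham than in TAC hearts, which had 8005, 14413 and 7929 against 1888, 2141 and 2099 (difference 1.48 ± 0.26, adjusted p = 0.012). For Cp the TAC values overlapped, at 2878, 2668 and 2827 against 2850, 2780 and 2697, so that the rise in sham hearts brought Cp to the level that TAC hearts had on either diet (difference 0.55 ± 0.11, adjusted p = 0.017). The 2 diet tables were normalized separately, which leaves such levels comparable only roughly. With GC and length trends removed, the difference was 0.28 for Cp (adjusted p = 0.099) and -1.18 for Gadd45b (adjusted p = 0.052), and neither was called. Cyp1a1 (adjusted p = 0.42), Per2 (adjusted p = 0.66), Tfrc (adjusted p = 0.85), Fmo2 (adjusted p = 0.96), Col3a1 (adjusted p = 0.12) and H2-Aa (adjusted p = 0.16) had no called difference, which does not show that their effects were equal.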

How the data were processed

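PolyA RNA of 12 heart samples had been sequenced, 3 per group, and the 6 sham samples make up the main comparison. Per the submitters' processing notes, the tools were Subread 1.5.2, STAR 2.5.2b, Trimmomatic 0.36 and DESeq2, whose version is not given in the sources used here, with the builds GRCm38 and mm10. The deposited signal of a gene is its read count scaled by the size factor of the library, set separately in each table of 6 libraries. Each value was a whole multiple of its library's step within 0.01 of a whole read. The log2 fold changes and p-values of the authors' own comparison, per the file headers, served only for the count of shared calls.

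The diets were compared with limma 3.58.1 in R 4.3.3 (with its trend and robust options and statmod 1.5.0) on log2(value + 1), for genes averaging 10 or more over the 6 libraries. Fold changes on that scale understate changes of low genes. An adjusted p under 0.05 (Benjamini-Hochberg, across every tested gene) is a call. The interaction used the 12 libraries of both diet tables; TAC log2 fold changes come from that fit. List medians are taken over tested members, and no list was tested as a set. The members and lists were chosen with earlier results of these data known, so a list's counts support nothing by themselves.

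Named genes were the 15 largest rises and falls among calls that averaged 100 or more, did not overlap and had an assigned symbol; up to 4 called members of a list, or the 2 with the smallest p where none was called; all members of the clock and class II lists, 10 BCAA-related genes, and the 10 smallest p of the interaction. Not all are described. Positions, GC content and length came from GENCODE M21 on GRCm38, which matched 99.8% of the identifiers. Alternatives were TMM (edgeR 4.0.16), library totals, other filters and pseudocounts, limma without trend, voom, edgeR and DESeq2 1.42.0 on recovered reads, a replicate block, all 12 libraries, and removal of GC and length trends. The scripts were tested on simulated counts. Replicate numbers were not treated as pairs in the main fits.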

Additional observations from a re-analysis of the deposited data

Results flagged for a closer look

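The diet effect differed between sham and TAC hearts, by the interaction in limma over 12 libraries, for 18 of the 95 genes called after sham; the values are the log2 diet effect after sham minus that after TAC. They are listed because both tests called them, and the sham libraries enter both tests. Among genes that rose after sham, the differences were 0.55 for Cp, 0.94 for Igf1r and 0.51 for Mylk. Among genes that fell after sham, the fall was smaller there than after TAC for Adamts9, a matrix protease (0.88), Fbn1 (1.48) and Itga1, a collagen receptor (0.70). The sham effect was the more negative for Pim1 (-1.03), Gadd45b (-1.47), Gapdh (-0.53), Fam131a (-1.0), Cryba4 (-1.41), Dcakd (-0.50), Gsg1l (-0.64), Hspb3 (-0.69), Impa2 (-0.80), Mir6236 (-1.20), Tmem25 (-0.88) and Ttc25 (-2.32). After removal of trends over GC content and length in each library, 9 of the 18 kept their call. These were Pim1, Fam131a, Gsg1l, Impa2, Mir6236, Tmem25, Ttc25, Fbn1 and Igf1r. Over all alternatives and leave-outs, the genes called least often were Mylk (7 of 23), Gapdh and Dcakd (9 of 23 each), Hspb3 (11 of 23) and Cryba4 (11 of 22).

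The 10 genes with the smallest interaction p were Fam131a and 9 genes that were not called after sham. The diet effect was lower in TAC than in sham hearts for Plekhg1 (1.16), Fam102b (1.12), Prrg3 (1.30) and Creb5 (1.25). The difference ran the other way for Cebpb, a transcription factor of stress responses (-2.20), Aes (-1.11), Rap1gap (-1.25), the growth factor Vegfb (-1.03) and Rnf187 (-0.88). Cebpb had 621, 554 and 1033 on the control diet and 739, 746 and 648 without BCAA after sham, which overlap, and went from 581, 583 and 632 to 2350, 2802 and 3158 after TAC. All 10 kept their call under the 23 alternatives and leave-outs run for each.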

How the results depend on the processing

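The genes called after sham kept their direction in every setting run, while the counts moved. The sham count of 95 became 52 among genes averaging 100 or more, 4 by limma without trend and robust variances, 63 by limma-voom, 531 by DESeq2, 44 where a log2 change of 1 or more was required, 366 (182 up, 184 down) with all 12 libraries in the fit, and 373 with GC and length trends removed. The cause was not tested, except that fewer genes or a stricter rule lower a count by construction. Leaving out each library gave 6 to 475. Scaling to library totals alone gave 97, of which 52 rose and 45 fell, with 82 shared. The replicate block gave 143 genes, 78 of them shared. Same-numbered samples had deviations correlated at -0.0029, 0.062 and -0.0031, and samples with different numbers at -0.048 to 0.041. These values cannot decide whether the numbers pair the samples. The interaction count of 1319 became 298 by limma without trend and robust variances, 2217 by DESeq2, 253 where a log2 change of 1 or more was required, 624 with GC and length trends removed (145 higher after sham, 479 lower; added after seeing the data) and 235 to 1766 over leave-outs; library totals gave 1456 higher and 387 lower, with the median of all genes at 0.20.

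Genes that were not called and lay near 0 changed sign in some settings: with library totals Bckdk (3.9e-04), Ddit4 (0.014) and Sesn2 (0.029), and with GC and length trends removed Ddit4 (0.036). Over leave-outs Bckdk ran from -0.082 to 0.018, Bckdha from -0.0032 to 0.16, Per1 from -0.53 to 0.35, Ddit4 from -0.34 to 0.40 and Sesn2 from -0.25 to 0.18. Depth was lowest in BCAA-free replicate 2, at 13847107 reads.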

Other observations

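Adipocyte markers had a median log2 fold change of 0.91 over 11 tested members in sham hearts, with 0 called by limma and 4 at an unadjusted p under 0.05, and -0.079 among members averaging 100 or more. Cfd, the secreted protease adipsin, had 102, 52.4 and 144 on the control diet and 371, 244 and 135 on the BCAA-free diet, with BCAA-free replicate 3 among the controls (1.32 ± 0.46, adjusted p = 0.22). Cidec, a fat droplet protein, had 30.3, 36.2 and 43.5 against 106, 79.1 and 47.5 (1.00 ± 0.30, adjusted p = 0.14). In both genes replicate 3 was the lowest of the BCAA-free libraries, as it was for Dbp, Hlf and Per3.

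Among cardiomyocyte markers, 0 of 23 were called by limma and 8 had an unadjusted p under 0.05. The 2 with the smallest p ran in opposite directions. Myom2, which links myosin filaments at the M band, had 31442, 39150 and 34299 against 50548, 53631 and 47264 (0.53 ± 0.12, adjusted p = 0.060). Casq2, the calcium store protein of the sarcoplasmic reticulum, had 27218, 24498 and 29136 against 18987, 20386 and 20558 (-0.43 ± 0.11, adjusted p = 0.089). For both genes the libraries of the 2 diets did not overlap.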
